A study of Mus musculus with 6 samples.

Results

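The chemokine genes Ccl2, Ccl3, Ccl4, Ccl6, Ccl9, Ccl22, Ccl24, Cxcl1, Cxcl2 and Cxcl3 were followed across peritoneal cells. They are 10 of the 55538 features in the count table and were chosen by name, with earlier results of these data known. Each was measured as unique molecular identifiers (UMIs, one per captured mRNA molecule) in macrophages (MΦs), and the MΦs were split by the UMIs they held of Tnf, Irf4, Folr2 and Gata6, with B cells and T/NK cells as contrast. A cell counted as a MΦ with at least 2 UMIs of Csf1r, Adgre1 and Fcer1g together, at most 2 of Cd79a and Cd79b, and at most 1 of Cd3d, Cd3e and Nkg7. B cells had at least 4 UMIs of Cd79a and Cd79b, and T/NK cells at least 2 of Cd3d, Cd3e and Nkg7.

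Cells were lavaged from the peritoneum of C57BL/6J mice aged 8 to 12 weeks that were Mertk+/+ or Mertk-/- (the MerKD line, which lacks the apoptotic cell receptor MerTK throughout the animal and had been backcrossed to C57BL/6J), and the cells left adherent after 1 h of plating were used. For each genotype there were 3 libraries, namely a media change control and co-cultures of 2 h or 6 h with apoptotic cells, which were UV-irradiated human Jurkat T cells carrying GFP. Each of the 6 libraries pooled the cells of 3 mice and was made with a 10x Genomics kit that reads the 5′ end of transcripts. Barcodes carried a library number from 1 to 6 that no label tied to a genotype or a time, so no comparison of genotypes or times was made, and values are given over all libraries and by number.

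Chemokines are small secreted proteins that steer leukocytes along gradients through G protein-coupled receptors. Cxcl1, Cxcl2 and Cxcl3 act on CXCR2 and recruit neutrophils, Ccl3 and Ccl4 draw monocytes and T cells, Ccl2 draws monocytes through CCR2, Ccl6 and Ccl9 act on CCR1, Ccl22 draws T cells through CCR4, and Ccl24 (eotaxin-2) draws eosinophils through CCR3. In the peritoneum, large MΦs that depend on the transcription factor Gata6 live beside small MΦs of monocyte origin that depend on Irf4, and resident MΦs are an early source of neutrophil chemokines when the cavity is disturbed.

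After filtering, 7665 of 7760 barcodes were kept, from libraries of 4234786 to 10287079 UMIs. They held 2773 MΦs (225 to 690 per library, median 4426 UMIs per cell), 3101 B cells (median 5561), 667 T/NK cells (median 3206) and 1277 cells of none of these classes. All 7 listed macrophage markers, of which Csf1r, Adgre1 and Fcer1g were used by the rule and had to differ, were at least 2-fold higher in MΦs than in B cells and than in T/NK cells, and their summed level was 16441 to 20379 CPM (UMIs of a gene scaled to a common total per class) across the libraries in MΦs. In B cells it was 99.4 to 540 CPM and in T/NK cells 31.5 to 3380 CPM, so lymphocyte barcodes held some mRNA of these markers. Of the 3 macrophage marker genes used by the rule, 104 B cells and 50 T/NK cells held 2 or more UMIs. The source of these UMIs was not tested. There were 28 barcode sequences present in more than 1 library, on 53 kept cells, of which 21 were MΦs. Intervals given below cover counting error only. Cells of 1 library are not replicates and each condition had 1 library, so no p-values are given.

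The 3 Cxcl genes lie close together on chromosome 5 of GRCm38 (Cxcl3 chr5:90786103-90789600, Cxcl1 chr5:90891241-90893115 and Cxcl2 chr5:90903871-90905938, all on the plus strand), with Ccl24 far from them at chr5:135569937-135573049 on the minus strand. On chromosome 11, Ccl9 (chr11:83572919-83578636), Ccl6 (chr11:83587882-83593087) and Ccl3 (chr11:83647844-83649355) on the minus strand are followed by Ccl4 (chr11:83662584-83664683) on the plus strand, and Ccl2 lies at chr11:82035571-82037453. Ccl22 lies at chr8:94745590-94751699. Promoter windows from RefSeq (GRCm38.p6) were found for 7 of the 10 genes, all except Ccl2, Ccl4 and Ccl24. The stretches below, which end 26 bases before the transcription start (29 for Cxcl2), are shown because the genes that went with Tnf and those that did not can be read side by side. They are upstream of the annotated genes, and capitals mark matches to the kappaB motif, the DNA site of NF-kB, on either strand.
Cxcl1, chr5:90891120-90891219, plus strand: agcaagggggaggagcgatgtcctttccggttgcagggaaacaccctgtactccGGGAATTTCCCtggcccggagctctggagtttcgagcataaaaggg
Cxcl2, chr5:90903774-90903870, plus strand: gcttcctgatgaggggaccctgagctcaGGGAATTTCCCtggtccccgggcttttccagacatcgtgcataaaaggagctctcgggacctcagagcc
Cxcl3, chr5:90785976-90786075, plus strand: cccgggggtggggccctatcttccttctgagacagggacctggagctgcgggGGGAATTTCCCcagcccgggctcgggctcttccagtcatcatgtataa
Ccl3, chr11:83649404-83649503, minus strand: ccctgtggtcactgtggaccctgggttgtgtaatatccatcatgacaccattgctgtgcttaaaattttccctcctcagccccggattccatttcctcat
Ccl9, chr11:83578662-83578761, minus strand: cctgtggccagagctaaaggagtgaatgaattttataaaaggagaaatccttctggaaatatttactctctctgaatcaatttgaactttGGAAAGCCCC
The windows of Cxcl1, Cxcl2 and Cxcl3 share 1 stretch of 11 bases, GGGAATTTCCC, which is the longest run common to their 250 upstream bases and holds kappaB matches on both strands. It begins 71 bases before the start in Cxcl1, 97 in Cxcl2 and 73 in Cxcl3. This run was chosen after the sequences were seen, and it occurs in 14 of 32851 windows (0.0426%), while any kappaB match occurs in 7.25%. Ccl9 had a kappaB match on the minus strand from 35 to 26 bases before the start and an AP-1 match (TGANTCA) from 53 to 47, a motif held by 6.75% of windows. Neither of these motifs was found in the 250 upstream bases of Ccl3, Ccl6 or Ccl22, which says only that these letters are not in those windows. TATAAA, searched on both strands and held by 12.4% of windows, was found once in Cxcl3, from 30 bases before the start, and 3 times in Ccl9, from 92 on the plus strand and from 224 and 94 on the minus strand.

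Over all MΦs, the 10 chemokines made up 1.72% of UMIs, against 0.119% in B cells and 0.188% in T/NK cells. The share was 3.16% in MΦs with at least 2 Tnf UMIs and 2.43% in MΦs with an Irf4 UMI. Of the 2773 MΦs, 20 held no UMI of any of the 10, 21.4% held UMIs of exactly 5, and none held all 10. At least 1 UMI was found in 29.0% of MΦs for Cxcl1 (exact 95% interval 27.3 to 30.8%), in 83.3% for Cxcl2 and in 46.4% for Cxcl3. For Ccl3 the share was 41.3%, for Ccl4 35.8%, for Ccl2 24.3%, for Ccl6 71.7%, for Ccl9 62.7%, for Ccl24 87.1% and for Ccl22 3.46% (2.81 to 4.21%). When every cell was thinned to 1500 UMIs these shares ranged from 2.38% (Ccl22) to 79.3% (Ccl24), and in B cells, thinned likewise, from 0.261% (Ccl2) to 6.82% (Ccl4). A 5′ count depends on how well each transcript is captured, so levels are compared between cells and not between genes.

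The first question was which chemokines went with Tnf, the gene of the inflammatory cytokine TNF. The 260 MΦs with at least 2 Tnf UMIs (18 to 83 per library) were set against the other 2513. Cxcl1, Cxcl2, Ccl3 and Ccl4 were at least 2-fold higher in the Tnf-expressing cells, Cxcl3 fell just short, and Ccl22 was at least 2-fold lower. At this fold, 4 of the 10 were higher, where 1.22% of the 8517 genes tested (those averaging 5 CPM or more over both sets of cells) were, and 1 of the 10 was lower, where 3.59% were. The median log2 ratio was 0.62 over the 10 genes and -0.20 over all genes, and ratios below are to be read against that shift.

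Cxcl2, the neutrophil chemokine also known as MIP-2, was at 13360, 13152, 13190, 12683, 10124 and 8270.4 CPM in the Tnf-expressing MΦs of libraries 1 to 6. In the other MΦs it was at 3929, 3269.6, 5917, 3455, 3129.9 and 2551 CPM. The 2 sets of libraries did not overlap, and the pooled log2 ratio was 1.79 (1.77 to 1.82), with ratios within libraries from 1.16 to 2.01. Cxcl1 (KC) was at 1497, 1621, 581, 1497, 1043.5 and 247 CPM in the Tnf-expressing MΦs and at 382, 303, 289.5, 228, 179.7 and 93.1 CPM in the others. It was higher in 6 of 6 libraries (log2 2.28, 2.21 to 2.36), although its level in library 6 was low in both sets and the sets overlapped. Cxcl3 was at 2371 and 1187 CPM when pooled (log2 1.00, 0.95 to 1.05, a 2-fold ratio not quite reached) and higher in 5 of 6 libraries, the exception being library 6.

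Ccl3 (MIP-1α) was at 2380.3, 2766, 6939, 3238, 3229.7 and 2796 CPM in the Tnf-expressing MΦs of libraries 1 to 6 and at 438, 477, 2735, 487, 651 and 871 CPM in the others. It was higher in every library, and library 3 was the highest in both sets (pooled log2 2.13, 2.08 to 2.18). Ccl4 (MIP-1β) was at 3262, 4053, 6102, 2745, 1838.5 and 2396.5 CPM against 1088, 1172, 3861, 699.7, 568 and 781 CPM, again higher in every library with the smallest log2 ratio, 0.66, in library 3 (pooled 1.55, 1.51 to 1.60). In the share of cells, Ccl3 went from 26.5% of the other MΦs to 71.2% of the Tnf-expressing ones and Ccl4 from 25.8% to 56.0%, both after thinning. Cxcl1 went from 17.1% to 40.5% and Cxcl2 from 75.0% to 95.3%. For these 4 genes a larger share of cells held the mRNA. Without thinning, Cxcl2 was at 85.8 against 21.6 UMIs per positive cell, in cells whose median depth was 6297.5 against 4304 UMIs.

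The remaining 5 genes did not reach 2-fold in favour of the Tnf-expressing cells. Ccl2 was at 396 and 338 CPM and was higher in 4 of 6 libraries. Ccl24 was at 5728.5 and 4835 CPM (log2 0.24), Ccl6 at 1053 and 1313 CPM (-0.32) and Ccl9 at 1257 and 1552 CPM (-0.30), each with libraries on both sides. Ccl22 was at 11.7 and 61.8 CPM (log2 -2.40, -3.12 to -1.76) and lower in 6 of 6 libraries, but 20 UMIs stood behind the lower value, and in the only 2 libraries with at least 4 UMIs on each side the log2 ratios were -0.83 and -0.23.

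The levels were also read over the number of Tnf UMIs per cell. Cxcl2 was at 3310.1 CPM in the 2199 MΦs with no Tnf UMI, 5783 in the 314 with 1, 9445 in the 85 with 2, 10956 in the 48 with 3 and 14917 in the 127 with 4 or more. Ccl3 went from 655 through 1319, 2088 and 3187 to 3945 CPM over the same steps and Cxcl1 from 229.65 through 503, 807 and 828 to 1715 CPM. Each of these 3 genes had a higher level at each step, while Ccl9 stayed between 1208 and 1609 CPM. Cells with more Tnf UMIs were also deeper, with a median of 4240 UMIs at 0 and 7151 at 4 or more, and CPM divides by that depth.

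**Figure D1:**
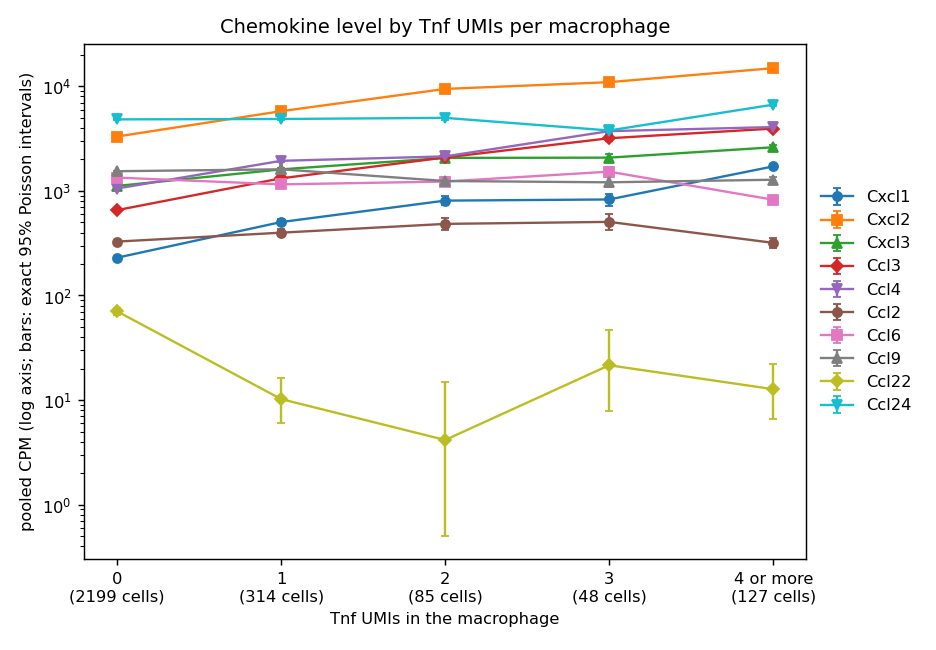
Pooled CPM (log axis) of the 10 chemokines in MΦs grouped by their Tnf UMIs (0, 1, 2, 3, 4 or more), with exact 95% Poisson intervals. Cxcl2 climbs from 3310.1 to 14917 CPM and Ccl3 from 655 to 3945, while Ccl9 and Ccl6 have no such slope and Ccl22 is highest in the cells with no Tnf UMI (70.6 CPM).

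Other genes moved with the same split. Of the 19 tested genes in a list induced with NF-kB, 11 were at least 2-fold higher in the Tnf-expressing MΦs (median log2 1.09, Tnf itself included), among them Il1a (2.13), Il6 (1.93), Ptgs2 (1.98) and Nfkbiz (2.47). Of the 9 tested genes in a list of handling and stress genes, 4 were at least 2-fold higher, among them Egr1 (2.50) and Ier2 (1.46), and the summed level of the list was 5602 to 6521.5 CPM across libraries in the Tnf-expressing cells and 2473.5 to 3737 CPM in the others. These cells had been lavaged and plated, and the part of handling in the chemokine values was not tested. Dendritic cell (DC) markers summed to 10.6 CPM in the Tnf-expressing cells and 47.2 in the others.

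The second question was which chemokines went with Irf4, the factor of small peritoneal MΦs. The 277 MΦs with an Irf4 UMI were unevenly spread, with 121 in library 6, 47 in library 3 and 16 to 38 in each of the others. All 6 tested markers of small MΦs, Irf4 itself among them, were at least 2-fold higher there (5204 against 864 CPM in sum). Retnla made up most of that list's sum over all MΦs (1177 of 1290 CPM). All 8 markers of large MΦs were at least 2-fold lower in the Irf4-expressing cells (604 against 2079.7 CPM). Ccl2, Ccl3, Ccl6, Ccl9 and Ccl22 were at least 2-fold higher in the Irf4-expressing cells and Cxcl1 at least 2-fold lower. That is 5 of 10 higher, where 7.76% of 8840 genes were, and 1 of 10 lower, where 5.37% were. The median log2 ratio was 1.19 over the 10 genes and 0.08 over all genes.

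Ccl9 (MIP-1γ) was at 3520.5, 4038, 7459, 2993, 7799 and 6330.3 CPM in the Irf4-expressing MΦs of libraries 1 to 6, and at 884, 809, 2559.8, 661, 661 and 2466 CPM in the rest. The sets did not overlap, the pooled log2 ratio was 2.35 (2.31 to 2.39) and the ratios within libraries ran from 1.36 in library 6 to 3.56 in library 5. Ccl6 (C10) was at 2311, 2195, 5109, 1390, 2755 and 3346 CPM against 681, 710.2, 3352, 751, 782 and 2138 CPM. It was higher in every library (pooled 1.57, within libraries 0.61 to 1.82), with overlap between the sets because libraries 3 and 6 were high in both. After thinning, Ccl9 UMIs were found in 80.7% of Irf4-expressing MΦs and 43.2% of the rest, and Ccl6 UMIs in 84.4% and 50.5%.

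Ccl2 (MCP-1) was at 984 CPM with Irf4 and 275.5 without (log2 1.84, 1.74 to 1.93), higher in 5 of 6 libraries and slightly lower in library 2. Ccl3 was at 2471 and 914 CPM (1.44), but the median of the ratios within libraries was 0.82 and the pooled ratio without library 3 was 0.85, so the call rested on that library. Ccl4 was at 2580 and 1345 CPM (0.94) and was at 0.25 without library 3 and at 1.04 and 1.18 without library 2 or 6. Ccl22 was at 131 and 47.4 CPM (1.46), with a median within libraries of 0.59 over the 4 that could be sized. DC markers were at 67.3 CPM in the Irf4-expressing cells and 40.0 in the rest, with 2 of 3 tested markers at least 2-fold higher. B cell markers summed to 36.2 CPM with Irf4 and 4.91 without (Cd79a, the 1 tested, at log2 2.83), and Irf4 itself was at 272 CPM in B cells and 54.3 CPM in MΦs. The eosinophil list summed to 143 and 5.79 CPM, its 1 tested gene being Siglecf, while Prg2 and Epx of that list were at 0 in MΦs. The part of these other cell types in the chemokine values was not tested.

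The neutrophil chemokines ran the other way. Cxcl1 was at 145, 93.2, 55.6, 472, 62.3 and 26.01 CPM in the Irf4-expressing MΦs of libraries 1 to 6 and at 573, 484, 420.3, 395, 242 and 129.6 CPM in the rest. It was lower in 5 of 6 libraries, library 4 being the exception, and the pooled log2 ratio was -1.76 (-1.99 to -1.54), or -2.71 without library 4. Cxcl2 was at 2711 and 5018 CPM (-0.89) and Cxcl3 at 920.4 and 1378.5 CPM (-0.58), each lower in 6 of 6 libraries without reaching 2-fold when pooled (Cxcl2 passed it, at -1.13, without library 3). The medians of the ratios within libraries were past it, at -1.06 for Cxcl2 and -1.03 for Cxcl3. Cxcl2 UMIs were found in 53.5% of Irf4-expressing and 79.6% of the other MΦs after thinning. Of the NF-kB list, 7 of 19 tested genes were at least 2-fold lower with Irf4 and none was higher. Side by side, the log2 ratios of the Tnf and Irf4 splits were 2.28 and -1.76 for Cxcl1, 1.79 and -0.89 for Cxcl2, 2.13 and 1.44 for Ccl3, and -0.30 and 2.35 for Ccl9. The splits draw on the same MΦs, 23 of them positive for both genes, and the difference between the splits was not tested.

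**Figure D2:**
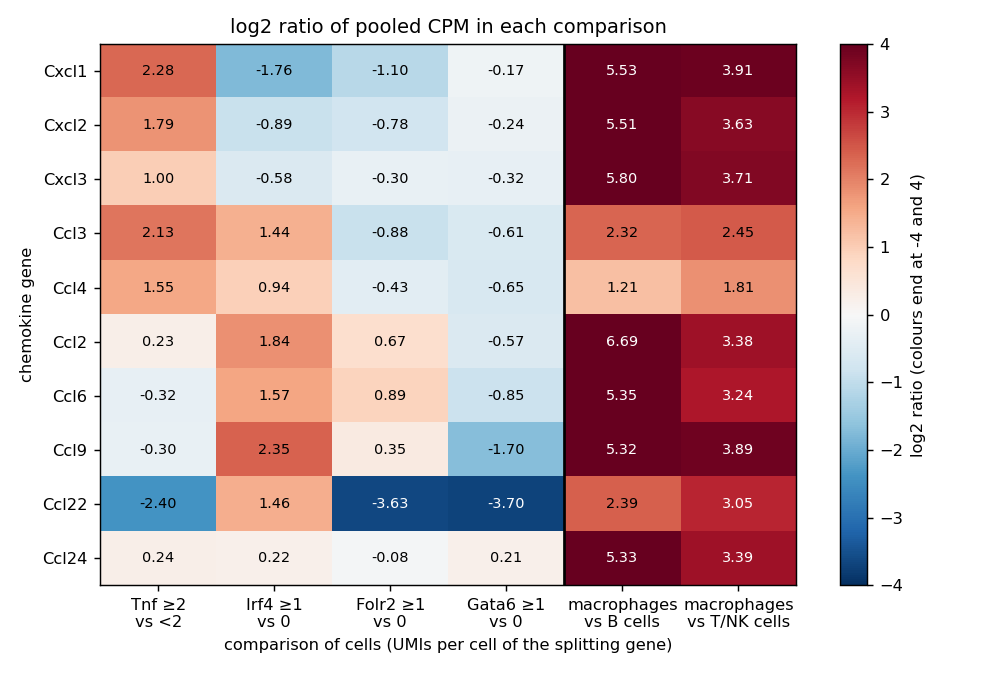
Log2 ratio of pooled CPM for the 10 chemokines (rows) in the 4 splits of the MΦs and in MΦs against B cells and T/NK cells (columns). The number in each field is the ratio and its colour runs from blue (-4) to red (4). Positive values are higher in the cells positive for the gene or in MΦs, and the values of Cxcl1 pass from 2.28 in the Tnf split to -1.76 in the Irf4 split.

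Folr2, a folate receptor of resident MΦs, was detected in 134 MΦs, with 7 to 54 per library, and library 2 was too small for a ratio of its own. None of the 10 chemokines was at least 2-fold higher in these cells, where 8.54% of 8816 genes were, and Cxcl1 and Ccl22 were at least 2-fold lower, 2 of 10 where 3.72% of genes were. The median log2 ratio was -0.37 over the 10 genes and 0.27 over all genes. Cxcl1 was at 191 and 409 CPM (log2 -1.10, -1.37 to -0.84) and lower in 5 of 5 libraries, with a median of -0.66 within them and a pooled value of -0.91 without library 1, under 2-fold. Without library 3 it was also just under. Cxcl2 (2848 and 4886 CPM), Cxcl3 (1090.1 and 1345 CPM) and Ccl3 (593 and 1089.6 CPM) were lower in 5 of 5 as well, Ccl3 passing 2-fold (-1.07) without library 3. Ccl6 leaned the other way, at 2277 and 1232 CPM (log2 0.89) and higher in 5 of 5 libraries, and past 2-fold (1.13) without library 3. Ccl2, at 533 and 336 CPM (0.67), was at 1.16 without library 4. Ccl22 had 3 UMIs in the Folr2-expressing cells (4.69 CPM, against 58.1, log2 -3.63, -5.91 to -2.08), and without library 6 the ratio was -2.80. In the same split, 4 of 8 markers of large MΦs were at least 2-fold lower, the small MΦ markers summed to 3172 CPM with Folr2 and 1198 without (2 of 5 tested at least 2-fold higher), and DC markers to 12.5 and 44.1 CPM. Their part in the chemokine values was not tested.

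Gata6, the factor of large peritoneal MΦs, was detected in 657 MΦs. None of the 10 chemokines was at least 2-fold higher there, where 0.647% of 8661 genes were, and Ccl9 and Ccl22 were at least 2-fold lower, 2 of 10 where 2.94% were. The median log2 ratio was -0.59 over the 10 genes and -0.05 over all genes. Ccl9 was at 583 CPM with Gata6 and 1892 without (-1.70, -1.76 to -1.64) and lower in 6 of 6 libraries, from -2.05 to -1.07. Ccl6 (813 and 1469 CPM) and Ccl3 (777 and 1183 CPM) were lower in 6 of 6 without reaching 2-fold. Ccl22 was at 5.81 and 75.7 CPM (-3.70, -4.37 to -3.11), lower in 6 of 6, and was at -5.04 without library 2 and -3.03 without library 6. In the same split, small MΦ markers were at least 2-fold lower in 5 of 5 tested (244 against 1711.5 CPM in sum), 3 of 8 markers of large MΦs were at least 2-fold higher, DC markers summed to 15.2 and 53.8 CPM, and Siglecf was lower (log2 -4.11). Their part in the chemokine values was not tested. Ccl24 had log2 ratios between -0.08 and 0.24 in all 4 splits, the narrowest spread of the 10, and its ratios within libraries ran from -1.20 to 1.11. It was detected in 86.3% to 92.5% of the cells on the positive side of each.

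The next question was how evenly the libraries held these mRNAs. Library 3 had the highest MΦ level for 8 of the 10 genes, all but Cxcl1 and Ccl22. Its 10 genes summed to 3.44% of MΦ UMIs, against 1.20% to 1.69% in the other 5. The share of all genes that were highest in library 3 was not counted, so the 8 cannot be called particular to chemokines. Ccl3 was at 728, 755, 3389, 858, 811 and 976 CPM in libraries 1 to 6, so library 3 was 3.47 times the next. Ccl4 was at 1412, 1522, 4209, 976, 646 and 869 CPM, likewise with library 3 at 2.77 times the next. Ccl2 was at 92.1, 186, 1279, 165, 279 and 852 CPM, a 13.9-fold range in which libraries 3 and 6 were high. The same pair was high for Ccl6 (3764 and 2466 CPM, against 774 to 880 in the others) and for Ccl9 (3707.5 and 3515 CPM, against 796 to 1034).

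Cxcl1 had another order, with 548, 463, 335, 399, 233 and 101.5 CPM, lowest in library 6. Cxcl2 ranged from 2864 to 7049 CPM and Cxcl3 from 884 to 2156, a 2.46-fold and a 2.44-fold range. Ccl24 was at 6005, 5917 and 8446 CPM in libraries 1 to 3 and at 3374.5, 2968 and 2840.3 CPM in libraries 4 to 6. Ccl22 was at 204 CPM in library 6 and 14.6 to 51.1 CPM in the others. The markers of the MΦ mix differed between libraries too. Small MΦ markers were at 2682 and 3049 CPM in libraries 3 and 6 and 599.8 to 1187 in the others. Large MΦ markers were lowest in the same pair (1266 and 1047 CPM). Over all MΦs, most of each sum came from 1 gene, Retnla (1177 of 1290 CPM) and Prg4 (1360 of 1935 CPM). Library 3 also had the largest share of T/NK cells, 23.1% of kept cells. In the MΦs positive for none of the 4 genes, library 3 was the highest for the same 8 chemokines, with Ccl3 at 2173 CPM there and a median of 524 over the 6. These cells do not hold the mix fixed, since a cell with no UMI of a gene may still express it. Irf4 was detected in 9.98% of MΦs and Gata6 in 23.7%. Genotype, time, the mix of MΦs and any handling particular to library 3 cannot be told apart.

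**Figure D3:**
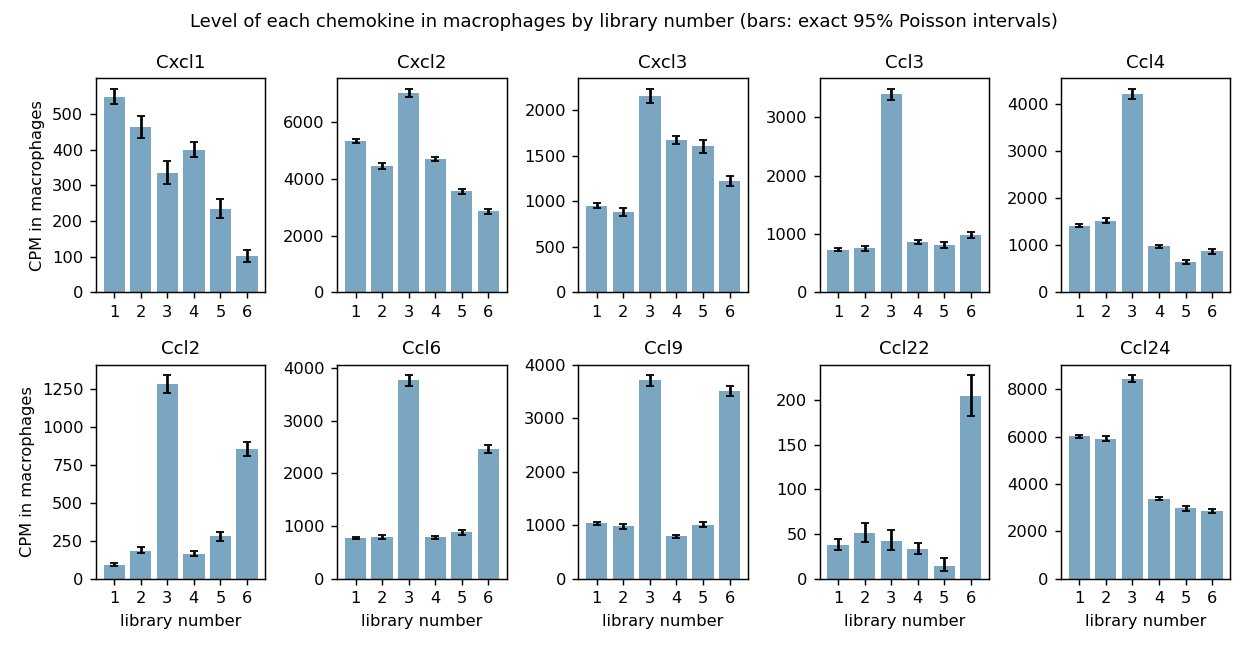
CPM of each chemokine in MΦs (one panel per gene, linear axes from 0) by library number, with exact 95% Poisson intervals. Library 3 is highest in 8 of the 10 panels, libraries 3 and 6 stand above the rest for Ccl2, Ccl6 and Ccl9, and library 6 stands alone for Ccl22 (204 CPM).

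Some of the mRNAs were held by few cells. The 1% of MΦs with most Ccl2 UMIs (28 cells) held 30.1% of them and the 10% with most (278 cells) held 85.3%. The 1% held 25.8% for Cxcl1, 25.4% for Ccl4, 21.8% for Ccl3, 16.5% for Cxcl3, 14.03% for Ccl9, 12.2% for Cxcl2, 11.5% for Ccl6 and 10.5% for Ccl24. Ccl22 was the most concentrated of the 10, with 76.4% in 28 cells and 50% in 12 cells. A single MΦ held up to 430 UMIs of Cxcl2 and 428 of Ccl24. Counting intervals of a pooled level are therefore narrower than the spread between cells, most of all for Ccl22.

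Some of the genes went together over single MΦs. The values here are Pearson correlations of log-transformed counts (log1p of UMIs per 10000) over 2773 MΦs, which share libraries and depth, and they are given as a description. Ccl3 and Ccl4 had the highest (0.64, from 0.50 to 0.67 within libraries), followed by Ccl6 and Ccl9 (0.59, 0.39 to 0.60), Cxcl1 and Cxcl2 (0.41, 0.31 to 0.48) and Cxcl2 and Cxcl3 (0.36, 0.29 to 0.48). Cxcl1 and Cxcl3 were at 0.15. Ccl2 was at 0.33 with Ccl3 (0.23 to 0.40) and 0.27 with Ccl4 (0.19 to 0.43). With Ccl6 it was at 0.28 when pooled, above every value within libraries (0.097 to 0.24). Across the groups, Ccl3 and Cxcl2 were at 0.32, while Cxcl1 was at -0.18 with both Ccl6 and Ccl9 and Cxcl2 at -0.20 with Ccl22, each negative within all 6 libraries. Cxcl2 and Cxcl3 share 50-base stretches of transcript. Of the Cxcl2 stretches, 5.84% occur in another gene, and 4.24% of the Cxcl3 stretches occur in 1 or more of 38 other genes, Cxcl2 among them. For Ccl9 the share was 1.97%, and none of the other 7 genes shared such a stretch. Reads lying wholly within shared parts could not be assigned to 1 gene.

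**Figure D4:**
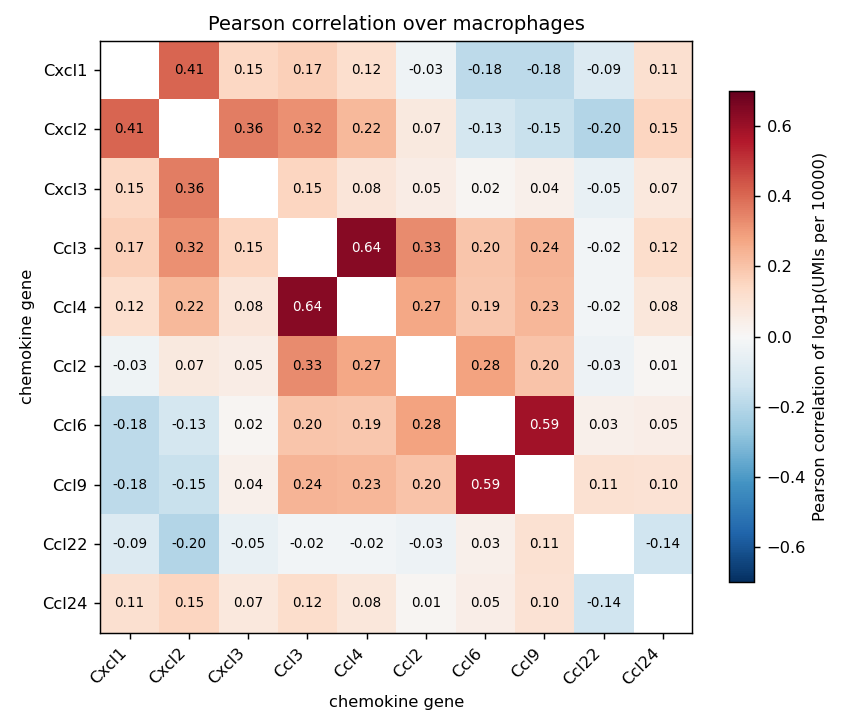
Pearson correlation between the 10 chemokines over 2773 MΦs (log1p of UMIs per 10000). The pairs Ccl3 with Ccl4 (0.64), Ccl6 with Ccl9 (0.59) and Cxcl1 with Cxcl2 (0.41) stand out, and Ccl22 with Cxcl2 is the most negative (-0.20).

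Among 9030 genes detected in at least 2% of MΦs, members included, the 3 non-members most like each member named similar groups. For Cxcl1 and Cxcl2 they were Ptgs2 (which encodes COX-2; 0.38 and 0.47), Il1a and Ier3, and for Cxcl3 Ptgs2 (0.27), Il1b and Il1a. For Ccl3 they were F3 (tissue factor; 0.47), Il1a and Plk2, and for Ccl4 Hbegf (0.38), F3 and Plk2. Ccl2 was nearest to Ccl7 (0.67), a neighbouring CCR2 ligand, then Il1rn and Hbegf. Lgals3 (galectin-3) came first for Ccl6 (0.48) and Ccl9 (0.55), with Retnla for both, Psap for Ccl6 and Mmp19 for Ccl9. Ccl22 was nearest to Il4i1 (0.70), Cytip and Grk3, and Ccl24 to Fn1 (fibronectin; 0.29), Prdx5 and F10. Of these 30 places, 24 were also among the first 3 by Spearman correlation and 23 over thinned cells.

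Ccl22 stood apart from the rest in where it was found. Inside the MΦ rule, 55 cells with at least 2 UMIs of 7 DC markers held 53.5% of its UMIs, at 1387 CPM (1256 to 1528) and in 65.5% of cells, while the 2578 MΦs with no DC marker UMI were at 25.0 CPM and 1.86% of cells. The median depths were 4371 and 4384.5 UMIs. Outside the 3 classes, 156 cells with at least 2 DC marker UMIs were at 563 CPM and held it in 15.4% of cells. The list does not mark DCs alone, since Ccr7, which gave most of its UMIs in MΦs, was at 211 CPM in T/NK cells and 95.5 in B cells. In the same 55 cells Cxcl1 was at 50.7 CPM, against 406 in the MΦs with no DC marker UMI, and Cxcl2 at 3054 against 4829.6, while Ccl9 was at 1921 against 1463 and Ccl3 at 1322.5 against 1043.5. Among the DC markers, Ccr7 was at 25.6 CPM over all MΦs, Zbtb46 at 8.42, Cd209a at 4.64 and Fscn1 at 2.98. Clec9a was at 0.653 CPM, Flt3 at 0.290 and Xcr1 at 0.0726. When the MΦs with a DC marker UMI were left out, which was tried after the values were seen, the Ccl22 log2 ratio was -1.06 in the Tnf split, 2.94 in the Irf4 split, -2.37 in the Folr2 split and -5.44 in the Gata6 split. The directions were those of the whole class, and the sizes rested on few UMIs.

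Of the 28 other chemokine genes listed, 11 had at least 5 CPM in MΦs. They were led by the platelet factor gene Pf4 (2641 CPM), Cxcl14 (392), Ccl7 (274) and Cxcl16 (107). Below these came Ccl5 (67.0), Cxcl13 (41.4), Ppbp (8.35), Cxcl5 (7.62), Ccl17 (7.11), Cxcl10 (5.73) and Ccl25 (5.66). Ccl5 was found in 3.49% of MΦs and was at 1093 CPM in T/NK cells. Cxcl10 (9.90 CPM) and Ccl25 (8.44) were also higher in T/NK cells, and the rest of the 11 were lower there than in MΦs. In the Tnf split, 2 of the 10 tested were at least 2-fold higher, Cxcl5 (log2 1.76) and Cxcl10 (1.45), and 1 was lower, Ccl5 (-1.36). In the Irf4 split, 3 of 11 were higher and 2 lower, the latter being Pf4 (-1.34) and Cxcl13 (-1.51). In the Folr2 split 1 of 9 was higher and 1 lower, and in the Gata6 split none of 10 was higher and 4 were lower. Among the receptors described here, MΦs held Ccr1 (297 CPM) and Ccr2 (24.1 CPM). Ccr3 (0.218 CPM) and Cxcr2 (0.0726 CPM) were at 3 UMIs or fewer, and no UMI of Ccr4, Ccr8, Cxcr1, Ackr1 or Ackr2 was found. Ccr2 was at least 2-fold higher with Irf4 (log2 1.99) and at least 2-fold lower with Gata6 (-3.43).

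The last question was how the 10 mRNAs stood in MΦs against lymphocytes. All 10 were at least 2-fold higher in MΦs than in B cells, where 19.4% of 9432 genes were. All 10 were also at least 2-fold higher than in T/NK cells, where 18.6% of 9663 genes were. The 10 had been chosen with earlier results of these data known, so both counts may follow from that choice. The median log2 ratios of the 10 were 5.34 and 3.38, against -0.17 and -0.24 over all genes. Against B cells, 7 of them were past 5 on the log2 scale, led by Ccl2 (6.69) and Cxcl3 (5.80), while Ccl22 (2.39), Ccl3 (2.32) and Ccl4 (1.21) were not. Ccl22 was lower in MΦs than in B cells in library 5 (log2 -1.68), and the other 9 were higher in 6 of 6 libraries. Leaving out 1 library at a time took Ccl22 to between 1.72 (without library 6) and 3.30 (without library 5), Ccl2 to between 6.01 (without library 3) and 7.55 (without library 6), and Cxcl2 from 5.51 to 6.19 without library 1. Against T/NK cells the ratios ran from 1.81 (Ccl4) to 3.91 (Cxcl1), with Ccl4 lower in MΦs in library 6 (-0.49) and the other 9 higher in 6 of 6. Library 6 had only 24 T/NK cells, and over all libraries 153 cells of that class also passed the B cell rule. Library 3 held 247 of the 667 T/NK cells, and without it Ccl2 was at 7.34 in place of 3.38, Ccl6 at 4.06 in place of 3.24 and Ccl3 at 1.82 in place of 2.45. Without library 1, Cxcl2 was at 4.30 in place of 3.63 and Ccl22 at 5.13 in place of 3.05, and Ccl22 was at 2.39 without library 3 and 2.41 without library 6.

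Much of the lymphocyte signal was in barcodes that also held macrophage marker UMIs or passed both lymphocyte rules, as 153 cells did. Both kinds of barcode were left out together, so their parts cannot be told apart. Whether the macrophage marker UMIs came from MΦs or from the lymphocytes themselves was not tested. In all T/NK cells, B cell markers summed to 712 CPM. The 2718 B cells with no macrophage marker UMI and only the B cell rule passed were chosen after the values were seen. In them, 7 of the 10 chemokines were at 0.0756% to 0.203% of their MΦ level and Ccl22 was at 6.51%. Ccl3 and Ccl4 did not drop in this way. Ccl4 was at 635 CPM in all B cells and 649.85 CPM in these, 44.3% of its MΦ level, and Ccl3 was at 214 and 202 CPM, 18.9% of its MΦ level. In the 457 T/NK cells chosen likewise, Ccl4 was at 76.5 CPM (5.22% of the MΦ level, with 93.5% of UMIs in the top 1% of cells), Ccl22 was at 1.27% on 1 UMI, and the other 8 were at 0.0531% to 0.465%.

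**Figure D5:**
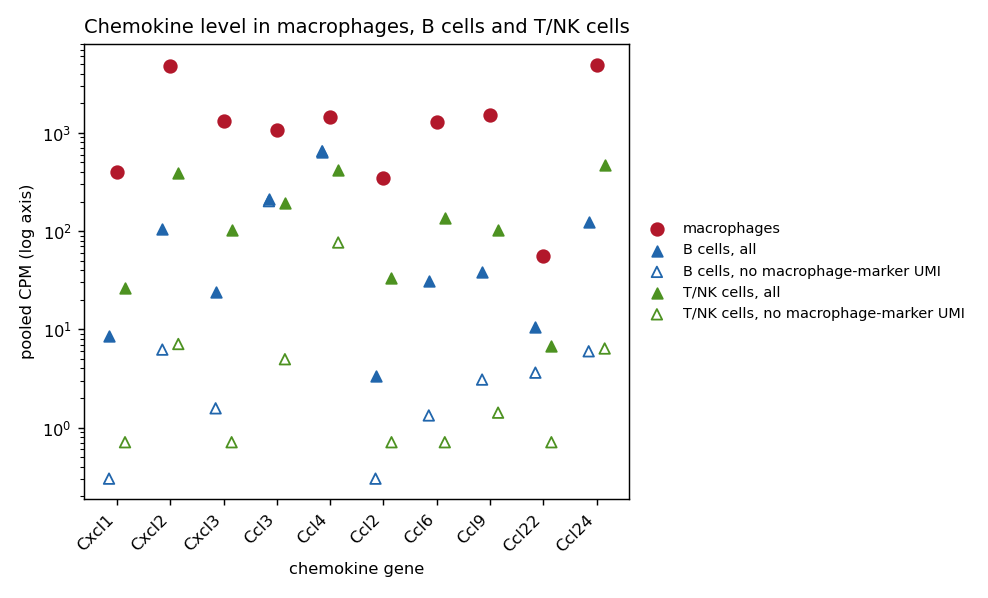
Pooled CPM (log axis) of each chemokine in MΦs (circles), in all B cells and T/NK cells (filled triangles) and in those with no macrophage marker UMI (open triangles). The open triangles also leave out cells that passed both lymphocyte rules. Open triangles lie far below the filled ones for most genes, but for Ccl4 in B cells both lie near 650 (635 and 649.85 CPM) and for Ccl3 in B cells near 200 (214 and 202 CPM).

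A small set of B cells held these mRNAs. Among the 2718, 122 (4.49%) had at least 10 Ccl4 UMIs, a threshold chosen after the values were seen, and they held 97.7% of the Ccl4 UMIs and 78.5% of the Ccl3 UMIs. Of these 122 cells, 62 also had at least 10 Ccl3 UMIs. Their Ccl4 level was 8044 CPM and their Ccl3 level 2008 CPM, with up to 1090 Ccl4 UMIs in a single B cell, while Cxcl2 was at 16.1 CPM, Ccl24 at 1.53 CPM and Ccl2, Ccl6 and Ccl9 at 0. These cells were taken from those with no macrophage marker UMI, so low values of MΦ chemokines may follow from that choice, and the part of macrophage RNA in their Ccl3 and Ccl4 was not tested. Each library held 6 to 41 of them, and they were deep, with a median of 9547 UMIs against 5154.5 in the other B cells. Their median was 8 against 10 UMIs of Cd79a and Cd79b. The cells were picked by raw Ccl4 UMIs, so their depth, Ccl4 share and Ccl4 level may follow in part from that cut.

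Across libraries 1 to 6, Ccl4 in the B cells with no macrophage marker UMI was at 468, 649, 1661, 175, 78.5 and 643 CPM and Ccl3 at 196, 108, 459, 94.3, 66.1 and 292 CPM. Library 3 was the highest for both, as it was in MΦs. When every cell was thinned to 1500 UMIs before the rules were applied, 8.20% of the 122 cells and 43.5% of the others still met the B cell rule, and the log2 ratio of MΦs to B cells was 5.04 for Ccl3 and 4.51 for Ccl4. It also went up for the other genes that could be sized, to 10.2 for Ccl6, 9.11 for Ccl9, 9.04 for Cxcl2, 8.54 for Ccl24, 8.31 for Cxcl3, 8.19 for Cxcl1 and 2.56 for Ccl22. The cause was not tested.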

How the data were processed

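The deposited table held raw UMI counts per gene and barcode, which the authors made with Cell Ranger and STAR on the joined human (hg38) and mouse (mm10) genomes, keeping mouse reads. The submitters' processing notes name Cell Ranger 2.2 and Seurat 3.0, while the study's methods give other versions of both, and which made the table could not be told. The gene annotation behind the counts was not given in the sources used here. Barcodes of 6 libraries were joined in 1 table, and 1 library was made per genotype and time, so neither replicate error nor p-values could be had.

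Barcodes under 500 genes, under 0.8 in the ratio of log genes to log UMIs, or over 10% mitochondrial UMIs were dropped (95 in all). Median depth per kept cell was 2783 to 5794 UMIs by library. The UMIs of a gene were added up within each class and scaled by that class's total (CPM), and their intervals are exact Poisson (95%). Ratios have exact conditional intervals and shares of cells have Clopper-Pearson intervals. A gene counted as called at 2-fold, against all genes averaging 5 CPM or more over both groups. Ratios within a library needed 10 cells and, for a size, 4 UMIs on each side. For thinning, each cell was sampled to 1500 UMIs, and 313 shallower cells were left out. Scrublet called 47 barcodes (0.606%) doublets, which were kept and left out as an alternative. The scripts were tested on simulated data. The members and gene lists were chosen with earlier results of these data known. All 10 members are named, as are the 3 genes nearest to each, other chemokines with at least 5 CPM in MΦs, receptors (1 of the list is not reported here) and a few genes of each list. Gene positions are from GENCODE on GRCm38. Python 3.11.15, numpy 2.4.6, scipy 1.17.1, pandas 2.3.3, scanpy 1.11.5 and matplotlib 3.10.9 were used.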

Additional observations from a re-analysis of the deposited data

Results flagged for a closer look

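Ccl3 in the MΦs of library 3 (3389.2 CPM) and Ccl4 in the same cells (4209.4 CPM) lay far above the other 5 libraries, with gaps of 0.907 and 0.754 of the whole range, past Dixon's 95% critical value for 6 samples. Ccl22 in the MΦs of library 6 (204.25 CPM) did so as well, with a gap of 0.807. Chance gives such a gap in about 1 in 20 groups, and the 6 libraries are different conditions whose numbers match no label, so they are not replicates. The share of all genes with such a gap was not counted. Ccl22 was also at 118.3 CPM in the cells that met none of the 3 class rules, above its 55.6 CPM in MΦs.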

How the results depend on the processing

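No paired analysis was possible because each condition had 1 library and library numbers match no label. Among the alternative values for the counts of genes past 2-fold, 19 lay beyond 1.5 times the reported count and the others stayed within it, and none of the 35 ratios past 2-fold turned its direction under any alternative run. Of 518 alternative values for these ratios, 510 were still past it. Sizes were less steady. Of 893 alternative values for all 60 ratios, 455 lay outside the counting interval of the reported one, and the largest move was 7.61 on the log2 scale. So did 292 of 1330 alternative shares of cells (largest move 37.7 percentage points). Among alternative shares of UMIs held by the first cells, 105 of 200 did (16.4 points). The counts that moved were these. With Irf4, the 1 lower gene became 3 when cells were thinned, 2 at a threshold of 2 Irf4 UMIs, 2 at 1.5-fold, 3 by the median within libraries, and 1 to 2 when a library was left out (2 without library 3). The 5 higher genes with Irf4 became 3 by the median within libraries. With Folr2, the 0 higher genes became 1 when cells were thinned, 1 at a threshold of 2 UMIs, 1 among cells positive in 1 split only, 2 at 1.5-fold, and 0 to 1 when a library was left out (1 without library 3 or library 4). The 2 lower genes with Folr2 became 4 at a threshold of 2 UMIs, 4 when centred on the median gene, 4 at 1.5-fold, 1 by the median within libraries, and 1 to 2 when a library was left out (1 without library 1). With Gata6, the 2 lower genes became 5 at 1.5-fold. With Tnf, the 1 lower gene, Ccl22, became 0 by the median within libraries. The causes were not tested. Depth limits Ccl22 most, with 3 to 23 UMIs on the positive side of the Tnf, Folr2 and Gata6 splits, and receptors at 0 to 3 UMIs were below what can be compared.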
